A study of Homo sapiens with 12 samples.

Results

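The integrated stress and unfolded protein response was followed here through 36 genes, taken by their symbols from the 19516 genes with a symbol in a count table of 2 breast cancer cell lines grown with or without an aqueous extract of the succulent plant Kalanchoe pinnata. Of these, 20 belong to the ATF4 branch and 16 to the endoplasmic reticulum (ER) branch. A filter on low counts kept 35 of the 36 members, among 14133 genes tested. The serine synthesis enzyme PHGDH did not pass it, with 0 to 0.356 CPM (counts relative to the scaled size of a library) over the 12 libraries. It was not tested.

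In the integrated stress response, kinases that sense ER stress, amino acid shortage, haem shortage or viral RNA phosphorylate the translation factor eIF2, which slows protein synthesis as a whole while the transcription factor ATF4 is translated more. ATF4 then turns on genes for amino acid supply, redox control and, when stress lasts, the factor CHOP (gene DDIT3). The unfolded protein response is the ER's own alarm: the sensors PERK (gene EIF2AK3), IRE1 (gene ERN1) and ATF6 detect misfolded proteins, PERK feeds into eIF2, and IRE1 and ATF6 raise chaperones and degradation factors through XBP1 and the cleaved form of ATF6. Much of this control acts on translation, splicing and cleavage, which read counts per gene do not show.

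MDA-MB-231 and HCC1937 are established lines from triple-negative breast cancers. The extract was given for 72 h at 140 µg/mL to MDA-MB-231, grown in DMEM, and at 66 µg/mL to HCC1937, grown in RPMI, beside controls that are also labelled 72 h. All 4 groups are labelled wild type (WT) and hold 3 libraries: E1, E2 and E3 are controls and E7, E8 and E9 extract libraries of MDA-MB-231, and E25, E26 and E27 are controls and E31, E32 and E33 extract libraries of HCC1937. Line, medium and concentration cannot be told apart, and no vehicle is named for the controls. Nothing in the labels says that the 3 libraries of a group came from separate cultures, so p-values measure only library-to-library spread, possibly of technical origin. In such bulk RNA, fewer cells of a kind and less RNA per cell cannot be told apart.

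Library totals ran from 16170545 to 31337431 counts, and 3 counts in a library correspond to 0.099 to 0.213 CPM. Library E7 stood apart: its rank correlation with a library of its own group was as low as 0.9658, against at least 0.9968 for all pairs in the other groups, and 10.7% of its counts were mitochondrially encoded, against 2.76% to 4.78% in the other 11 libraries. Among the 35 tested members, E7 was under 0.67 of the mean of E8 and E9 for 7 genes (down to 0.318 for ERN1) and over 1.5 times that mean for 5 (up to 1.86 for DDIT3), leaving out ALDH1L2, which had no read in E7. Values without E7 are therefore given where they matter. The epithelial keratins KRT8 and KRT18 were read in both lines. The labels call both lines epithelial, but CDH1 and KRT5 were at 0 in MDA-MB-231, where the mesenchymal gene VIM averaged 3740 CPM in controls. Over all libraries, 3 blood markers summed to 0.165 to 7.35 CPM and 2 endothelial markers to 0.356 to 14.8 CPM. The sum of 3 fibroblast markers was 22.3 to 31.5 CPM in controls and 4.48 to 9.35 CPM with extract, and its part in the results was not tested.

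Long transcripts lay lower with extract across the whole table: the 5630 tested genes with a longest transcript over 4000 nt had a median log2 fold change of -0.54 in MDA-MB-231 and -0.79 in HCC1937, against 0.30 and 0.22 for the 8424 genes up to 4000 nt. Each test was therefore repeated with an offset for transcript length and GC content, and for an effect within a line its value is given where it ends or makes a call, turns the direction or moves the fold by over 1.5 times. How far either property accounts for a member's change was not tested beyond that offset.

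Letters of known stress response elements were searched in the promoters, and 8 stretches are printed because their genes are described library by library further on or, for HERPUD1, because letters of both branches' elements lie in it. They come from the RefSeq promoter table on GRCh38.p14, which holds the bases from 250 before to 50 after a gene's start, for 32 of the 36 members (all but SHMT2, ALDH1L2, NUPR1 and PSPH). Capitals mark letters of a searched motif, on either strand, and each stretch runs 5′ to 3′ on the strand of the gene. The core of the C/EBP-ATF response element, TGATGNAA, was found in 4.46% of all 27305 genes and in 3.62% of all 35116 windows. A gene can have more than 1 window. In the ATF4 branch this core was found in 3 of 16 genes with a window. These are CHAC1 at chr15:40953250-40953281 (plus strand), ASNS at chr7:97872457-97872488 (minus strand) and CEBPG, at 1 of its listed starts, at chr19:33374059-33374090 (plus strand).
CHAC1: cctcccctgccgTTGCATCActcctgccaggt
ASNS: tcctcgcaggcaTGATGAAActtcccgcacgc
CEBPG: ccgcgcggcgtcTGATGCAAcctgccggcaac

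In the ER branch the ER stress response element, ERSE (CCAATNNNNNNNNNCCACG), was found in 6 of 16 genes, HSPA5, HSP90B1, CALR, CRELD2, PDIA6 and XBP1, and in 0.0916% of all genes. Its second form, ERSE-II (ATTGGNCCACG), was found in HERPUD1, HYOU1 and SDF2L1, and in 0.0696% of all genes. Neither was found in the 16 ATF4 branch genes with a window. The unfolded protein response element TGACGTGG was found in HYOU1, where it overlaps an ERSE-II, and in 0.927% of all genes. Printed here are HSPA5 at chr9:125241379-125241421 (minus strand), HSP90B1, with 2 elements, at chr12:103930204-103930351 (plus strand), XBP1 at chr22:28800591-28800633 (minus strand), SDF2L1 at chr22:21642102-21642136 (plus strand) and HERPUD1, with a C/EBP-ATF core ahead of its ERSE-II, at chr16:56931954-56932047 (plus strand). A match is a run of letters and not a measured binding site.
HSPA5: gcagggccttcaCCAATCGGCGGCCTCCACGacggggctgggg
HSP90B1: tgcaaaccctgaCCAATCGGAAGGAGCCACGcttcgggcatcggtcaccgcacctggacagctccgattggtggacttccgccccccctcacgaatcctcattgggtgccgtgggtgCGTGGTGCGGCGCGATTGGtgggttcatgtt
XBP1: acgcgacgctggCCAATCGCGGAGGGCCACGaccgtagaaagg
SDF2L1: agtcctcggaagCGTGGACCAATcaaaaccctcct
HERPUD1: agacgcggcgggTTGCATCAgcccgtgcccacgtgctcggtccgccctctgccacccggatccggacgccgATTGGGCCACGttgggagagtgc

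With 140 µg/mL of extract, MDA-MB-231 raised most of the ATF4 branch while the ER branch split. Of the 19 tested ATF4 branch genes 14 rose, 3 fell and 2 did not pass the test, with a median log2 fold change of 1.30. The glutathione-degrading enzyme CHAC1 rose most, 11.3-fold. Of the 16 ER branch genes 4 rose, 5 fell and 7 did not pass, with a median of -0.04, and the ER chaperone HSP90B1 was 8.90-fold lower. Rose and fell stand for an adjusted p under 0.05 in edgeR's quasi-likelihood test over all 14133 genes. Over both branches 18 of 35 members rose (51.4%) and 8 fell (22.9%), where 32.9% of all tested genes rose and 32.7% fell. The median over the members was 0.40 and that over all tested genes 0. Without E7, 19 members rose and 9 fell, where 5355 and 5347 of all 14360 genes then tested rose and fell. With the length and GC offset 17 rose and 10 fell, against 33.7% and 31.5% of all tested genes, and the branch medians were 0.99 for ATF4 and -0.40 for the ER, where 3 genes then rose and 8 fell.

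With 66 µg/mL, HCC1937 also raised most of the ATF4 branch, with a lower median, and raised more ER chaperones than it lowered. In the ATF4 branch 11 rose, 5 fell and 3 missed the threshold (median 0.45). In the ER branch 7 rose, 5 fell and 4 missed it (median 0.20). The ATF4 paralog ATF5 rose most, 6.49-fold, and among members over 1 CPM in this line the folate enzyme ALDH1L2 fell most, to a level 6.61-fold under the controls. Together 18 of 35 members rose (51.4%) and 10 fell (28.6%), against 32.7% and 39% of all tested genes. The median of all tested genes was -0.16 in this line and -0.06 when libraries were scaled by DESeq2's size factors, so small rises and falls are relative to a centre that moves by about that much. With the offset 13 members rose and 10 fell, against 32.9% and 34.4% of all tested genes, and the branch medians were 0.21 and -0.02. The ATF4 branch then had 9 rises and the ER branch 4, and among the 9 chaperones, of which 5 rose and 1 fell without the offset, 2 rose and 4 fell with it. The groups shared 1 estimate of spread per gene, while the biological coefficient of variation of the group of E7 was 0.296, against 0.0409 to 0.0449 elsewhere. Without E7, 23 members rose in HCC1937 and 10 fell, where 5463 and 6220 of all 14360 genes then tested rose and fell.

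**Figure D1:**
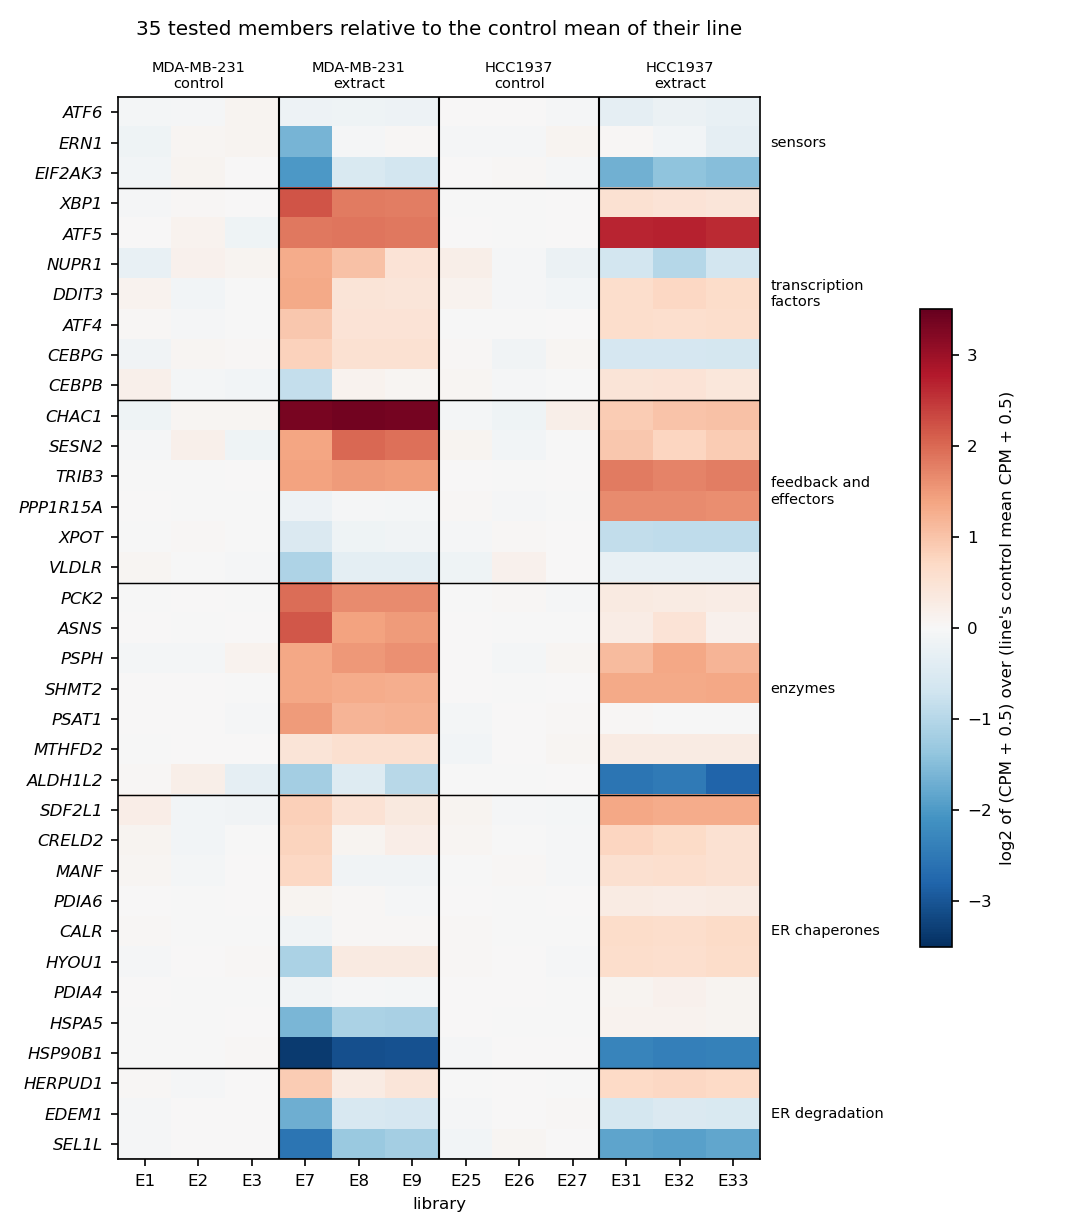
Heat map of the 35 tested members (rows, grouped by role) in the 12 libraries (columns), as log2 of CPM plus 0.5 over the control mean of the same line plus 0.5. CHAC1 and ATF5 are the deepest red rows, in MDA-MB-231 and HCC1937 extract libraries in turn, HSP90B1 is blue in all 6 extract libraries, and E7 differs from E8 and E9 in ERN1, HYOU1, CEBPB and MANF.

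In both lines 14 of the 35 members rose (40%) and 7 fell (20%), where 24.1% and 25.3% of all tested genes rose and fell in both. The rises were ATF4, ATF5, CHAC1, DDIT3, MTHFD2, PCK2, PSPH, SESN2, SHMT2 and TRIB3 of the ATF4 branch, and CRELD2, HERPUD1, SDF2L1 and XBP1 of the ER branch. The falls were ALDH1L2, VLDLR and XPOT, and EDEM1, EIF2AK3, HSP90B1 and SEL1L. The factors CEBPG and NUPR1 rose in MDA-MB-231 and fell in HCC1937. ASNS and PSAT1 rose and HSPA5 fell in MDA-MB-231 without passing in HCC1937. PPP1R15A, CALR, MANF and PDIA6 rose, and ATF6 fell, in HCC1937 without passing in MDA-MB-231. CEBPB, ERN1, HYOU1 and PDIA4 passed in neither. Extract and control libraries did not overlap for 28 members in MDA-MB-231 (17 above and 11 below, with 32.5% and 35.2% of all tested genes above and below) and for 33 in HCC1937 (23 above and 10 below, with 38.3% and 43.8%).

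Of the 3 sensors, the PERK gene EIF2AK3 fell in both lines. It measured 20.4, 23.4 and 22.0 CPM in MDA-MB-231 controls and 5.05, 15.1 and 13.8 CPM with extract. HCC1937 libraries of this gene measured 29.6, 30.2 and 29 CPM in controls and 8.90, 10.9 and 10.3 CPM with extract. Every extract library lay under every control of its line, with E7 the lowest of all 12. On the log2 scale the change was -0.93 ± 0.28 (SE) in MDA-MB-231 (adjusted p = 0.0115) and -1.56 ± 0.28 in HCC1937 (adjusted p = 0.000316). Without E7 the MDA-MB-231 value was -0.59 (adjusted p = 1.67e-06), and with the offset the HCC1937 value was -0.91 (adjusted p = 0.00206). The MDA-MB-231 call ended when that line was fitted alone, at the highest adjusted p over the alternatives, 0.0628. ERN1, which encodes the splicing enzyme IRE1, gave -0.36 ± 0.31 and -0.12 ± 0.32 and passed in neither line, with 13.8 CPM in E7 beside 42.1 and 44.6 CPM in E8 and E9. ATF6, a membrane-bound transcription factor cut free under stress, fell by 0.27 on the log2 scale in HCC1937 (adjusted p = 0.0064), and its -0.17 in MDA-MB-231 did not pass. The HCC1937 call of ATF6 ended with DESeq2's size factors (adjusted p = 0.0506). With the offset, ATF6 (7496 nt, 41.3% GC) turned to 1.09 in MDA-MB-231 and 1.20 in HCC1937.

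Of the transcription factors, ATF4 itself (Entrez 468, chr22:39519695-39522685) rose in both lines. Its controls measured 322, 303 and 312 CPM in MDA-MB-231, and its extract libraries 604, 440 and 439 CPM. The HCC1937 values were 341, 341 and 348 CPM in controls and 526, 518 and 525 CPM with extract. The groups did not overlap in either line, and E7 was the highest library. This gave a log2 fold change of 0.66 ± 0.12 in MDA-MB-231 (adjusted p = 0.000443) and 0.61 ± 0.12 in HCC1937 (adjusted p = 0.00067). With the offset the first was 0.01 (adjusted p = 0.912) and the second turned to -0.19 (adjusted p = 0.0145). The 9 housekeeping genes measured beside it had a median of 0.54 in MDA-MB-231 (5 rose, 0 fell, 4 not passing) and 0.39 in HCC1937 (6 rose, 1 fell, 2 not passing). With the offset their medians were 0.26 and 0.46. All tested genes had medians of 0 and -0.16 without the offset, and 32.9% rose and 32.7% fell in MDA-MB-231, and 32.7% and 39% in HCC1937.

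ATF5 (Entrez 22809, chr19:49928702-49933935), a paralog of ATF4 that is also under translational control, rose further. Its level was 8.48, 9.31 and 7.63 CPM in MDA-MB-231 controls and 32, 32.3 and 31.8 CPM with extract. In HCC1937 it was 12.8, 12.6 and 12.8 CPM in controls and 82.7, 84.7 and 80.3 CPM with extract. The extract libraries of a line lay within a few percent of one another, E7 included, and far above the controls. The fitted log2 change was 1.92 ± 0.09 (adjusted p = 6.5e-09) in MDA-MB-231 and 2.70 ± 0.08 (adjusted p = 1.24e-09) in HCC1937, and 1.23 and 1.85 with the offset.

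DDIT3 (Entrez 1649, chr12:57516588-57521737) encodes CHOP, a factor tied to cell death under lasting stress. It measured 66.2, 57.3 and 60.3 CPM in MDA-MB-231 controls and 155, 84.7 and 81.9 CPM with extract. HCC1937 gave 14.3, 12.8 and 12.4 CPM in controls and 20.6, 22.3 and 21.0 CPM with extract. Extract libraries lay above controls in both lines, and E7 held nearly all of the spread. The log2 fold change was 0.80 ± 0.20 in MDA-MB-231 (adjusted p = 0.0043) and 0.70 ± 0.21 in HCC1937 (adjusted p = 0.0106). Without E7 the first was 0.45 (adjusted p = 1.59e-07). With the offset neither passed, at 0.09 (adjusted p = 0.23) and -0.02 (adjusted p = 0.87).

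XBP1 (Entrez 7494, chr22:28794555-28800597), the factor whose messenger RNA IRE1 splices, rose mainly in MDA-MB-231. It measured 49.2, 52.2 and 51.1 CPM in controls and 237, 181 and 178 CPM with extract there. In HCC1937 it measured 137, 137 and 140 CPM in controls and 200, 191 and 187 CPM with extract. MDA-MB-231 lay well below HCC1937 among controls and at about its level among extract libraries. On the log2 scale the change was 1.96 ± 0.11 in MDA-MB-231 (adjusted p = 3.57e-08, 1.38 with the offset) and 0.48 ± 0.10 in HCC1937 (adjusted p = 0.00145). The HCC1937 value was -0.04 with the offset and did not pass (adjusted p = 0.445). Counts per gene hold the spliced and the unspliced form together.

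The remaining factors included the pair that moved in opposite directions. CEBPG, a partner of ATF4 in binding DNA, measured 50.8, 57.5 and 56.4 CPM in MDA-MB-231 controls and 96.2, 79.8 and 80.1 CPM with extract. HCC1937 libraries of this gene measured 42.6, 37.9 and 43.5 CPM in controls and 27.5, 27.2 and 26.9 CPM with extract. No extract library overlapped the controls, above them in the first line and below them in the second. This gave a log2 fold change of 0.64 ± 0.10 in MDA-MB-231 (adjusted p = 0.000122) and -0.60 ± 0.10 in HCC1937 (adjusted p = 0.000156), and the fall was not called with the offset (0.06, adjusted p = 0.63). NUPR1, a small stress-induced chromatin protein, was low in both lines. It measured 0.345, 0.606 and 0.565 CPM in MDA-MB-231 controls, against 1.99, 1.53 and 0.895 CPM with extract. The HCC1937 values were 6.38, 5.28 and 4.68 CPM, against 3.32, 2.45 and 3.28 CPM with extract. Its groups too were separate in opposite directions, at 1.5 ± 0.35 (adjusted p = 0.00264) and -0.85 ± 0.25 (adjusted p = 0.00874). CEBPB, a C/EBP factor of inflammation and stress, gave -0.15 ± 0.20 and 0.45 ± 0.20 and passed in neither (adjusted p = 0.52 and 0.0645). Without E7, which held 113 CPM of it beside 220 and 214 CPM, the HCC1937 value of CEBPB was called (0.47, adjusted p = 1.2e-06). With the offset CEBPB passed in MDA-MB-231, at -0.83 (adjusted p = 0.0104), and turned to -0.34 in HCC1937 (adjusted p = 0.233).

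CHAC1 led the feedback and effector genes in MDA-MB-231. This ATF4 and CHOP target (Entrez 79094, chr15:40952962-40956519), which breaks down glutathione, measured 3.70, 4.35 and 4.43 CPM in controls and 45.7, 47.8 and 47.4 CPM with extract. HCC1937 gave 10.8, 10.1 and 13.1 CPM in controls and 21.2, 23.2 and 23.3 CPM with extract. So the line with the lower control level had the higher level with extract. The fitted log2 change was 3.5 ± 0.12 in MDA-MB-231 (adjusted p = 1.56e-09) and 0.99 ± 0.11 in HCC1937 (adjusted p = 6.13e-06). With the offset the MDA-MB-231 value was 2.73, and the HCC1937 value, 0.10, no longer passed (adjusted p = 0.548).

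TRIB3 (Entrez 57761, chr20:362835-397559), a pseudokinase that dampens ATF4 and CHOP, rose in both lines. It measured 46.8, 46.6 and 47.5 CPM in MDA-MB-231 controls and 126, 132 and 131 CPM with extract. In HCC1937 it measured 62.3, 60.5 and 61.5 CPM in controls and 217, 206 and 215 CPM with extract. The groups overlapped in neither line, and E7 was close to E8 and E9. The log2 fold change was 1.46 ± 0.07 (adjusted p = 8.84e-09) in MDA-MB-231 and 1.79 ± 0.07 (adjusted p = 2.83e-09) in HCC1937, and 0.86 and 1.04 with the offset.

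PPP1R15A (Entrez 23645, chr19:48872392-48876057) encodes GADD34, which brings a phosphatase to eIF2 and so ends the response. It measured 707, 695 and 693 CPM in MDA-MB-231 controls and 620, 677 and 666 CPM with extract. HCC1937 libraries of this gene measured 80.0, 75.3 and 76.8 CPM in controls and 247, 246 and 242 CPM with extract. It was separated from controls in both lines, slightly below in MDA-MB-231 and well above in HCC1937, and all MDA-MB-231 libraries exceeded all HCC1937 libraries. On the log2 scale the change was -0.09 ± 0.08 in MDA-MB-231 (adjusted p = 0.315) and 1.66 ± 0.08 in HCC1937 (adjusted p = 9.39e-09). With the offset the MDA-MB-231 value was -0.68 and passed (adjusted p = 1.32e-07), and the HCC1937 value was 0.89.

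SESN2, a leucine-binding inhibitor of the growth kinase mTORC1, rose in both lines. It measured 26.2, 31.1 and 24.4 CPM in MDA-MB-231 controls and 72.3, 112 and 104 CPM with extract. The HCC1937 values were 24.7, 21.5 and 22.5 CPM in controls and 44.5, 39.0 and 43.0 CPM with extract. The extract groups were separate from controls, with E7 the lowest of its group. This gave a log2 fold change of 1.82 ± 0.16 in MDA-MB-231 (adjusted p = 1.19e-06) and 0.88 ± 0.15 in HCC1937 (adjusted p = 0.000297), the latter 0.30 with the offset. XPOT, the export receptor for transfer RNA, fell by 0.88 on the log2 scale in HCC1937 (adjusted p = 7.33e-06). Its MDA-MB-231 fall, -0.24 ± 0.10 (adjusted p = 0.0458), kept its call in 8 of 20 alternatives, and with the offset XPOT turned to 0.96 and 0.60.

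VLDLR, a lipoprotein receptor that PERK and ATF4 can raise, measured 38.8, 36.4 and 35.9 CPM in MDA-MB-231 controls and 17.3, 28.9 and 29.2 CPM with extract. In HCC1937 it had 0.0384, 0.165 and 0.105 CPM in controls, 9 reads in all, and no read in any extract library. Extract libraries lay below controls in both lines, though the second comparison rests on those 9 reads. The MDA-MB-231 value was -0.55 ± 0.19 (adjusted p = 0.0302), and with the offset it turned to 0.56. That call ended with the line fitted alone and without any 1 of the controls E1, E2 and E3 (highest adjusted p 0.0878). In HCC1937 VLDLR was called (adjusted p = 0.0237) at a level at least 2.69-fold lower, with 3 counts over the group as the floor, and leaving out E26 ended that call (adjusted p = 0.0623).

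**Figure D2:**
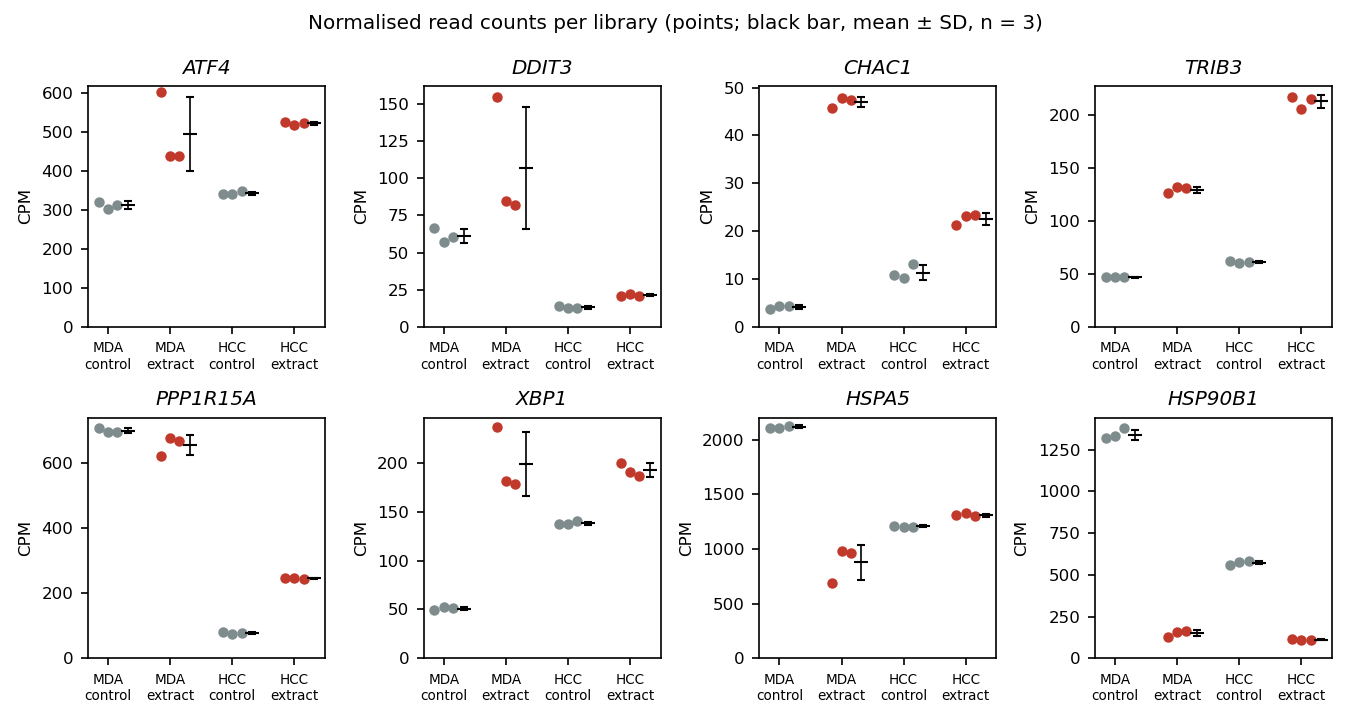
CPM on a linear axis from 0 for 8 members in the 12 libraries, as grey (control) and red (extract) points with the mean ± SD of 3 libraries in black, for MDA-MB-231 (MDA) and HCC1937 (HCC). HSP90B1 drops in both lines, HSPA5 in MDA-MB-231, and PPP1R15A starts near 698 CPM in MDA-MB-231 and near 77.4 CPM in HCC1937, while E7 sits apart for DDIT3, ATF4, XBP1 and HSPA5.

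The amino acid and one-carbon enzymes, classical ATF4 targets, had a higher median in MDA-MB-231. There 6 of the 7 tested rose and 1 fell, with a median of 1.31, while in HCC1937 4 rose, 1 fell and 2 did not pass, with a median of 0.30. Of all tested genes, 32.9% rose and 32.7% fell in MDA-MB-231, and 32.7% and 39% in HCC1937. With the offset 6 enzymes rose and 0 fell in MDA-MB-231 (median 1.17), and 4 rose and 2 fell in HCC1937 (median 0.55). ASNS (Entrez 440, chr7:97852118-97872542), which makes asparagine, measured 105, 104 and 105 CPM in MDA-MB-231 controls and 477, 282 and 294 CPM with extract. HCC1937 gave 43.4, 43.1 and 43.1 CPM in controls and 51.9, 59.9 and 48.4 CPM with extract. Extract lay above control in both lines, by a far wider gap in MDA-MB-231. The fitted log2 change was 1.74 ± 0.18 in MDA-MB-231 (adjusted p = 4.19e-06, 1.47 without E7) and 0.31 ± 0.17 in HCC1937 (adjusted p = 0.132), where it passed without E7 (0.33, adjusted p = 1.01e-06).

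PSAT1, the middle enzyme of serine synthesis, rose in MDA-MB-231. It measured 169, 168 and 160 CPM in controls and 464, 378 and 386 CPM with extract there. In HCC1937 it measured 180, 191 and 193 CPM in controls and 194, 186 and 185 CPM with extract. The HCC1937 groups overlapped, the MDA-MB-231 groups did not. The log2 fold change was 1.30 ± 0.09 (adjusted p = 2.16e-07) in MDA-MB-231 and 0.00 ± 0.09 in HCC1937 (adjusted p = 1), and 1.40 and 0.55 with the offset, where the latter passed (adjusted p = 1.58e-06).

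PCK2, the mitochondrial enzyme that makes phosphoenolpyruvate, measured 50.7, 51.6 and 49.9 CPM in MDA-MB-231 controls and 200, 162 and 161 CPM with extract. HCC1937 libraries of this gene measured 82.7, 86.5 and 81.8 CPM in controls and 104, 103 and 101 CPM with extract. It was thus higher in HCC1937 among controls and higher in MDA-MB-231 among extract libraries. On the log2 scale the change was 1.78 ± 0.09 (adjusted p = 2.06e-08, 1.17 with the offset) and 0.30 ± 0.09 (adjusted p = 0.0115), the latter turning to -0.45 with the offset (adjusted p = 0.000157). Upper-quartile scaling ended the HCC1937 call (adjusted p = 0.0571).

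ALDH1L2, a mitochondrial folate enzyme and an ATF4 target, went the other way from the rest of its group. It measured 29, 29.4 and 30 CPM in HCC1937 controls and 4.61, 4.94 and 3.81 CPM with extract. In MDA-MB-231 it was low, at 0.690, 0.827 and 0.424 CPM in controls and 0, 0.345 and 0.0895 CPM with extract, 38 and 11 reads in all. The HCC1937 groups are far apart, and the MDA-MB-231 values rest on those few reads. This gave a log2 fold change of -2.72 ± 0.23 in HCC1937 (adjusted p = 6.39e-07, -1.40 with the offset) and -1.85 ± 0.54 in MDA-MB-231 (adjusted p = 0.0103), where the offset ended the call (-0.81, adjusted p = 0.21). The transcript is 7547 nt long.

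The other enzymes rose in both lines. SHMT2, which opens mitochondrial one-carbon metabolism from serine, averaged 308 ± 3.62 CPM (SD, n = 3) in MDA-MB-231 controls and 763 ± 19.2 CPM with extract, and 135 ± 2.28 and 341 ± 5.39 CPM in HCC1937. The log2 fold changes of SHMT2, 1.31 and 1.34, fell to 0.79 and 0.67 with the offset, with both calls kept. PSPH, the last enzyme of serine synthesis, gave 1.53 ± 0.10 and 1.23 ± 0.10. MTHFD2, the next folate enzyme after SHMT2, gave 0.53 ± 0.08 and 0.28 ± 0.08, and 1.30 and 1.45 with the offset.

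The ER chaperones did not move together. HSP90B1 (Entrez 7184, chr12:103930107-103953645) encodes GRP94, the ER's HSP90, and was the deepest fall of the branch in both lines. It measured 1320, 1330 and 1380 CPM in MDA-MB-231 controls and 130, 159 and 163 CPM with extract. The HCC1937 values were 562, 579 and 581 CPM in controls and 115, 109 and 112 CPM with extract. The lines began 2.34-fold apart and lay near one another with extract. The fitted log2 change was -3.15 ± 0.11 in MDA-MB-231 (adjusted p = 1.2e-09) and -2.36 ± 0.10 in HCC1937 (adjusted p = 5.51e-09), and -2.88 and -1.66 with the offset.

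HSPA5 (Entrez 3309, chr9:125234853-125241330) encodes BiP, the ER's HSP70 and the usual marker of the unfolded protein response. It measured 2110, 2110 and 2130 CPM in MDA-MB-231 controls and 694, 981 and 960 CPM with extract. HCC1937 gave 1210, 1200 and 1200 CPM in controls and 1310, 1330 and 1300 CPM with extract. BiP was lower with extract in all 3 MDA-MB-231 libraries and slightly higher in all 3 HCC1937 libraries. The log2 fold change was -1.27 ± 0.13 in MDA-MB-231 (adjusted p = 5.49e-06, -1.12 without E7) and 0.12 ± 0.13 in HCC1937 (adjusted p = 0.41). The HCC1937 rise passed without E7 (0.15, adjusted p = 5.58e-06) and with the offset (0.43, adjusted p = 0.000169).

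SDF2L1, a cofactor that helps BiP work on its clients, measured 25.6, 20.3 and 19.9 CPM in MDA-MB-231 controls and 39.7, 31.2 and 27.9 CPM with extract. In HCC1937 it measured 18.2, 16.3 and 16.2 CPM in controls and 44.3, 42.7 and 42.4 CPM with extract. Extract libraries were above controls in both lines, more widely in HCC1937. On the log2 scale the change was 0.58 ± 0.14 (adjusted p = 0.00275) and 1.35 ± 0.14 (adjusted p = 3.32e-06). With the offset neither passed, at -0.29 (adjusted p = 0.0861) and 0.18 (adjusted p = 0.268). Its transcript, 865 nt, is the shortest among the members.

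Of the other 6 chaperones, 4 rose in HCC1937 and 1 in MDA-MB-231, beside 32.7% and 32.9% of all tested genes. By edgeR's test of the difference between the lines, only CALR of these 6 passed (0.64, adjusted p = 0.0044). CRELD2 (adjusted p = 0.393), MANF (0.355), HYOU1 (0.237), PDIA4 (0.165) and PDIA6 (0.0974) did not. Without E7 the effect was higher in HCC1937 for all 9 chaperones, as for 3552 of all 14360 genes then tested. CALR (calreticulin, a lectin chaperone) rose by 0.63 ± 0.10 in HCC1937, from 1400 ± 27.2 to 2170 ± 43.5 CPM, beside -0.02 ± 0.10 in MDA-MB-231. MANF, a secreted ER stress factor, rose by 0.56 ± 0.19 in HCC1937, beside 0.22 ± 0.19 in MDA-MB-231. Without E7 that MDA-MB-231 value of MANF turned to -0.11 (adjusted p = 0.0683). CRELD2, a stress-induced disulfide isomerase, rose in both lines (0.40 ± 0.15 and 0.66 ± 0.15), but in MDA-MB-231 its libraries overlapped, and without E7 the value was 0.17 (adjusted p = 0.0296). The MDA-MB-231 call of CRELD2 ended with upper-quartile scaling, with the line fitted alone and without E2 or E3 (highest adjusted p 0.126). The disulfide isomerase PDIA6 rose by 0.28 ± 0.07 in HCC1937, beside 0.04 ± 0.07, and its relative PDIA4 gave 0.12 ± 0.07 and -0.07 ± 0.07 and did not pass. HYOU1, the exchange factor GRP170, gave 0.62 ± 0.27 in HCC1937 (adjusted p = 0.0596) and -0.02 ± 0.27 in MDA-MB-231. HYOU1 held 136 CPM in E7 beside 363 and 363 CPM in E8 and E9, and without E7 it was called in both lines (0.33, adjusted p = 2e-10, and 0.64, adjusted p = 7.97e-21). With the offset CRELD2 turned to -0.46 and -0.31, MANF to -0.58 and -0.36, and PDIA4 gave -0.53 and -0.41. PDIA6 turned to -0.09 in MDA-MB-231. CALR then gave -0.65 in MDA-MB-231 (adjusted p = 8.95e-05) and -0.11 in HCC1937 (adjusted p = 0.35).

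Of the ER degradation genes, HERPUD1, a membrane scaffold of the pathway, rose in both lines and the others fell. SEL1L, the partner of the ubiquitin ligase HRD1, measured 95.5, 100 and 99.3 CPM in MDA-MB-231 controls and 16.3, 39.4 and 42.8 CPM with extract. HCC1937 libraries of this gene measured 131, 146 and 142 CPM in controls and 38.6, 37.1 and 39.6 CPM with extract. All extract libraries were far below the controls, E7 lowest. This gave a log2 fold change of -1.58 ± 0.26 in MDA-MB-231 (adjusted p = 0.00022, -1.26 without E7) and -1.86 ± 0.26 in HCC1937 (adjusted p = 4.74e-05). With the offset neither was called, at 0.01 (adjusted p = 0.994) and -0.05 (adjusted p = 0.81), and SEL1L has the longest tested transcript among the members after VLDLR (7925 nt) and the lowest GC content (39.4%). HERPUD1 rose by 0.56 ± 0.13 and 0.71 ± 0.13. EDEM1, a lectin that routes misfolded glycoproteins to degradation, gave -0.86 ± 0.23 (adjusted p = 0.00552, -0.57 without E7) and -0.55 ± 0.22 (adjusted p = 0.0465). The second call of EDEM1 held in 7 of 20 alternatives, and with the offset the value was 0.13.

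Genes with an ERSE or ERSE-II in the window did not share a direction. Of these 9 genes, 4 rose, 2 fell and 3 did not pass in MDA-MB-231, from -3.15 for HSP90B1 to 1.96 for XBP1. In HCC1937 6 rose, 1 fell and 2 did not pass, from -2.36 for HSP90B1 to 1.35 for SDF2L1. With the offset 2 rose and 4 fell in MDA-MB-231, and 3 rose and 2 fell in HCC1937. Of the 7 other ER branch genes, 0 rose, 3 fell and 4 did not pass in MDA-MB-231, and 1 rose, 4 fell and 2 did not pass in HCC1937. With the offset 1 of these 7 rose and 4 fell in MDA-MB-231, and 1 rose and 3 fell in HCC1937. The medians with the offset were -0.34 for the 9 and -0.45 for the 7 in MDA-MB-231, and 0.18 and -0.05 in HCC1937. The 4 members with a C/EBP-ATF core, CHAC1, ASNS, CEBPG and HERPUD1, all rose in MDA-MB-231, while in HCC1937 2 rose, 1 fell and 1 did not pass. All 4 rose with the offset too in MDA-MB-231, and in HCC1937 1 then rose and 3 missed the threshold. In the ATF4 branch as a whole, 14 of 19 tested genes rose in MDA-MB-231 and 11 in HCC1937, and 14 and 9 with the offset. Beside these counts, 32.9% of all tested genes rose and 32.7% fell in MDA-MB-231, and 32.7% and 39% in HCC1937. With the offset the shares were 33.7% and 31.5%, and 32.9% and 34.4%.

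The effect of the extract differed between the lines for 16 of the 35 members, by a test of the difference itself (HCC1937 minus MDA-MB-231). It was higher in HCC1937 for 7 (20%) and lower for 9 (25.7%), where 11.4% and 20.4% of all tested genes were higher and lower. In the ATF4 branch 3 were higher and 8 lower, and in the ER branch 4 were higher and 1 lower. The 9 differences of at least 1 on the log2 scale were those of CHAC1 (-2.50 ± 0.16, adjusted p = 1.33e-06), NUPR1 (-2.35 ± 0.43, adjusted p = 0.00166), PCK2 (-1.49 ± 0.13), XBP1 (-1.48 ± 0.15), ASNS (-1.44 ± 0.24), PSAT1 (-1.30 ± 0.13) and CEBPG (-1.24 ± 0.14) below 0, and of PPP1R15A (1.76 ± 0.11, adjusted p = 1.28e-06) and HSPA5 (1.39 ± 0.19, adjusted p = 0.000213) above 0. All 9 were called with the offset as well, and all 9 without E7. SESN2 and XPOT were also lower, and HSP90B1, ATF5, SDF2L1, CALR and TRIB3 higher. The offset ended the calls of SDF2L1 (0.47, adjusted p = 0.0768) and TRIB3 (0.18, adjusted p = 0.051), and that of TRIB3 also ended without E3, E26 or E27 (highest adjusted p 0.0591). For ATF4, DDIT3 and SHMT2 the difference was -0.05 ± 0.17, -0.11 ± 0.29 and 0.02 ± 0.11, and none passed. Without E7 the differences of ATF4 and DDIT3 turned and passed, at 0.13 (adjusted p = 0.0144) and 0.27 (adjusted p = 0.0216), and that of SHMT2 passed with DESeq2 (adjusted p = 0.0445). Without E7, 16 members were higher and 14 lower, where 3552 and 4797 of all 14360 genes then tested were higher and lower. With E7 these were 1607 and 2885 of 14133.

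**Figure D3:**
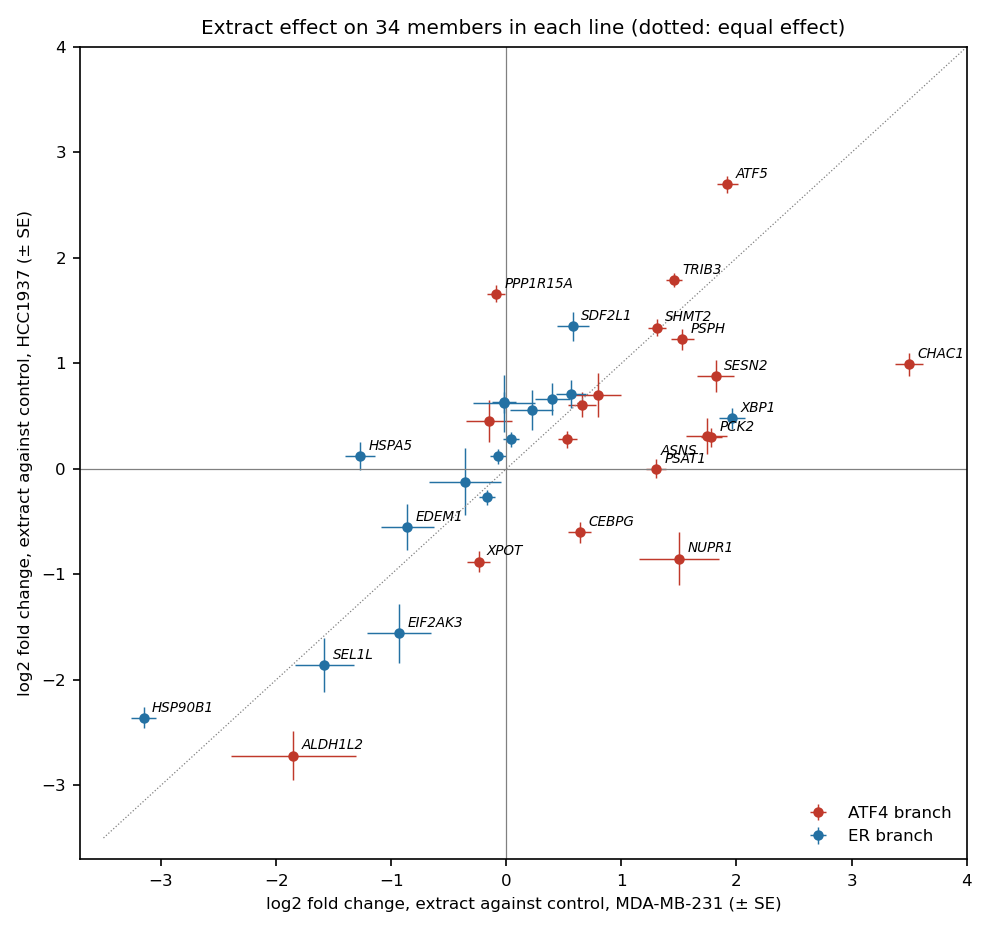
Log2 fold change with extract in MDA-MB-231 (horizontal) against HCC1937 (vertical) for 34 members, with SE bars, ATF4 branch in red and ER branch in blue, and the dotted line marking equal effects. VLDLR, at 0 in HCC1937 extract libraries, is left out. CHAC1 at 3.5 and 0.99, XBP1, ASNS and PCK2 lie right of the line, PPP1R15A and HSPA5 left of it, and CEBPG and NUPR1 in the lower right.

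Untreated, members differed between the lines at shares near those of all tested genes, with line and medium changing together. In HCC1937 controls 11 members were higher (31.4%) and 15 lower (42.9%) than in MDA-MB-231 controls, where 38.6% and 36.5% of all tested genes were higher and lower. The phosphatase subunit gene PPP1R15A was 9.02-fold lower in HCC1937 controls (log2 difference -3.17 ± 0.09, adjusted p = 6.06e-11) and DDIT3 4.65-fold lower (-2.22 ± 0.21, adjusted p = 1.91e-06). ALDH1L2 was 45.7-fold higher (5.51 ± 0.29, adjusted p = 1.19e-08) and NUPR1 10.7-fold higher (3.42 ± 0.31, adjusted p = 1.23e-06). VLDLR, at 37.0 ± 1.57 CPM in MDA-MB-231 controls, had the 9 reads given above in HCC1937. CHAC1 (1.44 ± 0.12), XBP1 (1.44 ± 0.11) and HERPUD1 (1.39 ± 0.13) were higher in HCC1937 controls, and HSPA5 (-0.81 ± 0.13) and HSP90B1 (-1.22 ± 0.10) lower. ATF4 (0.13 ± 0.12, adjusted p = 0.323) did not pass, with 313 ± 9.51 and 343 ± 4.05 CPM, but passed without E7 (0.10, adjusted p = 0.00431).

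Transcript length ran from 865 nt for SDF2L1 to 9163 nt for VLDLR, and the long members had lower medians, as the long genes of the whole table did. The 12 tested members over 4000 nt had a median log2 fold change of -0.30 in MDA-MB-231 (3 rose, 6 fell) and -0.73 in HCC1937 (1 rose, 9 fell). The 23 members up to 4000 nt had medians of 0.66 (15 rose, 2 fell) and 0.63 (17 rose, 1 fell). Of all 5630 tested genes over 4000 nt, 1022 rose and 2801 fell in MDA-MB-231, and 997 rose and 3065 fell in HCC1937. Of all 8424 up to 4000 nt, 3611 rose and 1795 fell in MDA-MB-231, and 3614 rose and 2414 fell in HCC1937. In both lines, rises outnumbered falls by a larger factor in members of this length than in all genes of this length. With the offset 18 of the 26 MDA-MB-231 calls kept their direction and call, 5 ended (ALDH1L2, ATF4, DDIT3, SDF2L1 and SEL1L), 3 turned (CRELD2, VLDLR and XPOT) and 6 members that had not passed now did. Of the 28 HCC1937 calls 14 were kept, 8 ended (CALR, CEBPG, CHAC1, DDIT3, EDEM1, SDF2L1, SEL1L and XBP1), 6 turned (ATF4, ATF6, CRELD2, MANF, PCK2 and XPOT) and 3 members were gained. Those kept in both lines were ATF5, EIF2AK3, HERPUD1, HSP90B1, MTHFD2, PSPH, SESN2, SHMT2 and TRIB3, and NUPR1 in its opposite directions. Length here is that of the longest coding transcript of a gene, which need not be the form these cells express.

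**Figure D4:**
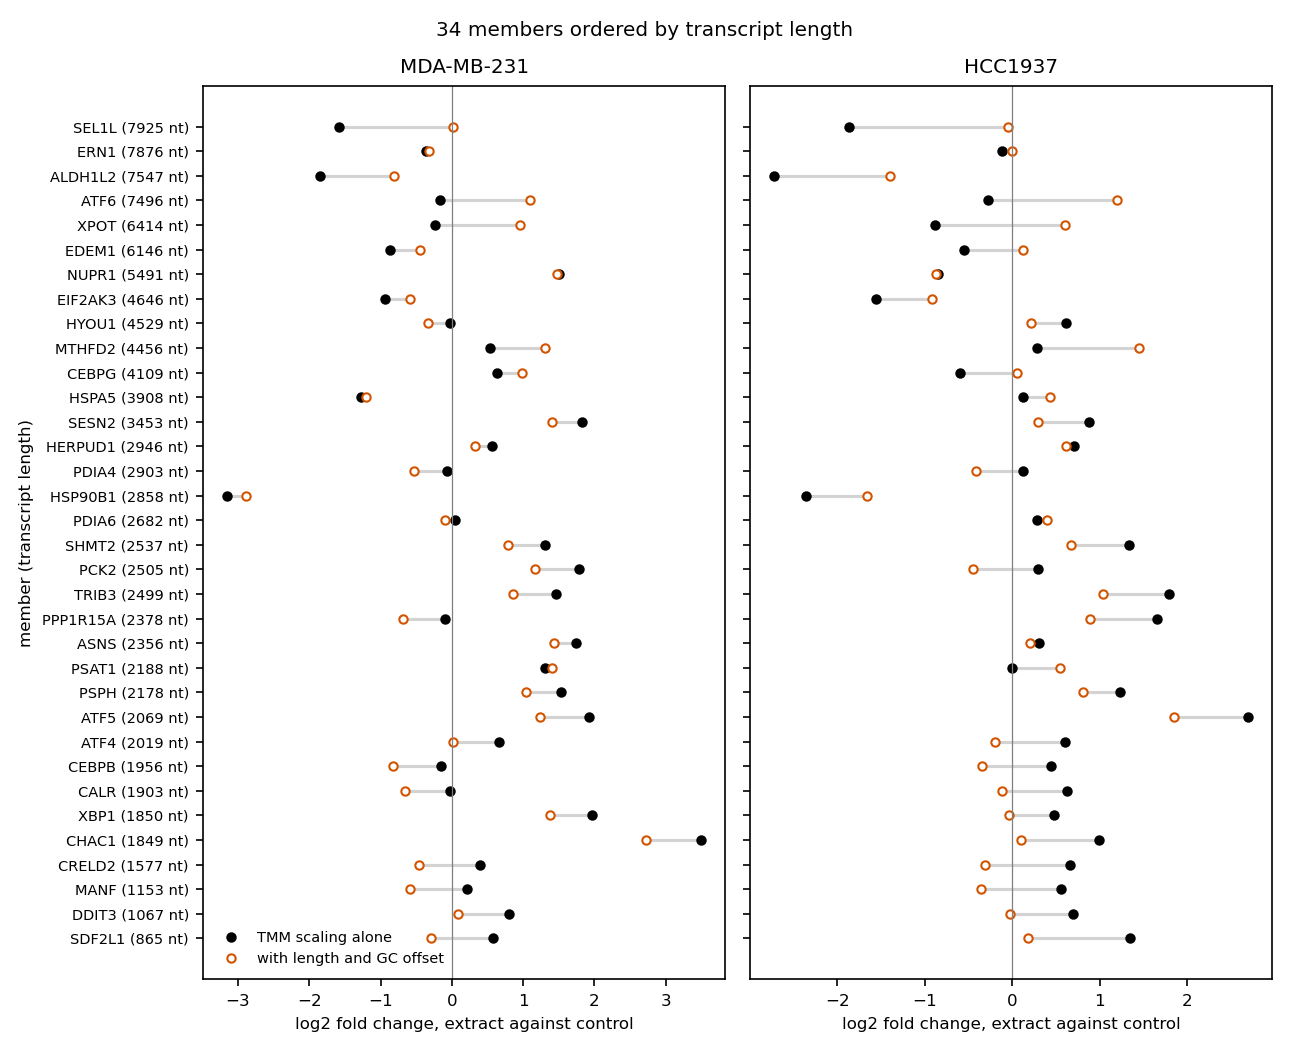
Log2 fold change of 34 members in MDA-MB-231 (left) and HCC1937 (right) without (black) and with (open orange) the length and GC offset, ordered by transcript length from 865 nt at the bottom to 7925 nt at the top (VLDLR left out). Long members such as SEL1L, ATF6 and XPOT move right with the offset, short ones such as SDF2L1, MANF and CHAC1 move left, and HSP90B1 stays below 0.

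Other genes of the same pathways, from lists outside the 36 members, were counted beside them. Of all tested genes, 32.9% rose and 32.7% fell in MDA-MB-231, and 32.7% rose and 39% fell in HCC1937. With the offset these shares were 33.7% and 31.5% in MDA-MB-231, and 32.9% and 34.4% in HCC1937. Of 25 other ATF4 targets 19 rose, 3 fell and 3 did not pass in MDA-MB-231 (median 1.37), and 15 rose, 7 fell and 3 did not pass in HCC1937 (median 0.76). The largest rises in MDA-MB-231 were the hormone gene FGF21 (2.79 ± 1.08, adjusted p = 0.0394, on 1 and 9 reads) and the peptide gene ADM2 (2.65 ± 0.11). The FGF21 call ended with the offset (2.16, adjusted p = 0.115) and without E7 (2.32, adjusted p = 0.148). The largest falls there were KLHL24 (-2.41 ± 0.11, -0.47 with the offset) and the cystine importer SLC7A11 (-1.98 ± 0.11, turning to 0.29). In HCC1937 the stress factor ATF3 rose by 3.52 ± 0.09, from 4.94 ± 0.310 to 56.8 ± 4.55 CPM, and FGF21 by 2.90 ± 0.50 (1.97 with the offset). There BCAT1, an aminotransferase of branched-chain amino acids with 70 and 11 reads, gave -2.47 ± 0.47 (-0.43 with the offset) and SLC7A11 -2.22 ± 0.12 (0.14 with the offset).

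Of 16 other genes of eIF2 control, 6 rose, 5 fell and 5 did not pass in MDA-MB-231 (median 0.10), and in HCC1937 6 rose, 6 fell and 4 did not pass (median -0.10). These counts lay near the shares of all tested genes given above. With the offset 10 of the 16 rose and 5 fell in MDA-MB-231 and 9 rose and 4 fell in HCC1937. Without E7, 9 of them rose and 6 fell in MDA-MB-231, where 5355 and 5347 of all 14360 genes then tested rose and fell. The exchange factor subunits EIF2B4 (1.30 ± 0.21, 0.60 with the offset) and EIF2B2 (1.04 ± 0.18) rose most in MDA-MB-231, and EIF2B2 (1.44 ± 0.18) and EIF2B5 (1.42 ± 0.10) in HCC1937. The MDA-MB-231 values without E7 were 0.93 for EIF2B4 and 0.74 for EIF2B2. The antiviral eIF2 kinase EIF2AK2 (PKR) had the largest fall in both lines, at -1.44 ± 0.08 and -2.28 ± 0.08 (0.42 and -0.29 with the offset). Next were the eIF2 subunit EIF2S3 (-0.91 ± 0.07) in MDA-MB-231 and the mitochondrial protease OMA1 (-1.66 ± 0.25) in HCC1937. Of 50 tested genes of ER folding, transport and degradation, 26 rose, 20 fell and 4 did not pass in MDA-MB-231 (median 0.28). There 32.9% and 32.7% of all tested genes rose and fell. In HCC1937 24 of the 50 rose, 18 fell and 8 did not pass (median 0.18), beside 32.7% and 39% of all tested genes. With the offset 28 of the 50 rose and 14 fell in MDA-MB-231, and 28 rose and 11 fell in HCC1937. CREB3, a membrane-bound factor related to ATF6, rose by 1.62 ± 0.11 and 1.53 ± 0.11, and the translocon subunit SSR4 by 1.42 ± 0.27 and 1.75 ± 0.27. With the offset CREB3 gave 0.93 and 0.69, and SSR4 0.51 and 0.81. E7 held 155 CPM of SSR4 beside 66.3 and 65.2 CPM in E8 and E9. The MDA-MB-231 values without E7 were 0.89 for SSR4 and 1.49 for CREB3. The glycoprotein-trimming factor EDEM3 fell by 2.22 and 2.70 on the log2 scale, the reductase DNAJC10 by 2.06 in MDA-MB-231 and the cargo receptor LMAN1 by 2.27 in HCC1937. With the offset EDEM3 gave -0.60 and -0.84, DNAJC10 turned to 0.24 in MDA-MB-231 and LMAN1 gave -0.68 in HCC1937.

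**Figure D5:**
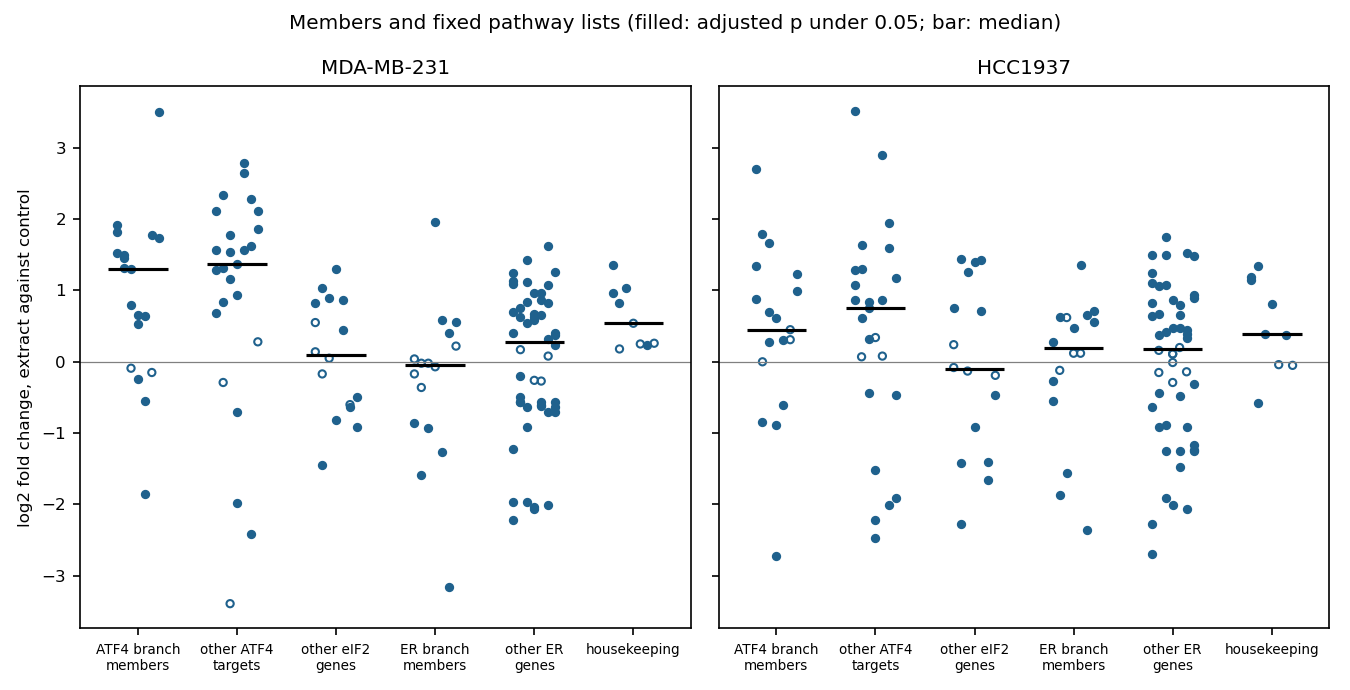
Log2 fold change with extract of the tested members of both branches and of 4 other gene lists in MDA-MB-231 (left) and HCC1937 (right), filled where the adjusted p is under 0.05, with a bar at the median of each list (VLDLR left out in HCC1937). ATF4 branch members and the other ATF4 targets lie mainly above 0 in MDA-MB-231, with medians of 1.30 and 1.37, while both ER lists spread to either side of 0.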

How the data were processed

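The data are RNA-seq counts per gene for 12 libraries of 2 cell lines. Per the submitters' processing notes, reads were checked with FastQC 0.12.1, trimmed with fastp 0.23.4 and quantified with Salmon 1.10.3 on GRCh38, with DESeq2 in R 4.4.1 as their own test. The labels describe capture of messenger RNA by poly-T beads and name a kit for total RNA. The cell line field of the labels runs on in number from sample to sample, so groups were taken from the titles. Which annotation the Salmon index used is not given in the sources used here. Deposited by the authors were expected counts, that is estimated reads per gene, unscaled. Of these values 52.8% were not whole, and all were rounded. The 1 entry with no symbol was left out.

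From there, R 4.3.3 and edgeR 4.0.16 were used: filterByExpr on the 4 groups, TMM scaling, 1 model of 4 group means over 12 libraries and robust quasi-likelihood F tests, with Benjamini-Hochberg adjustment over 14133 genes and calls at an adjusted p under 0.05. The SE is the log2 fold change over the root of F. CPM values use TMM-scaled library sizes, so a change in RNA per cell does not show. Folds against a group at 0 use a floor of 3 counts over the group. Floors cover counting error only. Length, GC content and gene coordinates come from GENCODE 29 on GRCh38 for 99.4% of tested genes and all 36 members. The offset is a smooth surface per library (mgcv 1.9.3) fitted on genes with a mean log2 CPM of at least 1. The steps were run on simulated data, with the spread estimated without the MDA-MB-231 extract group and a bias linear in log2 length and GC content. Those runs therefore do not show how the tests behave with the spread of E7 or with a bias of another shape. Alternatives were DESeq2 1.42.0, limma-voom (limma 3.58.1), DESeq2's size factors, upper-quartile scaling, no filter, no mitochondrially encoded genes, each line alone, the offset and each library left out.

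The members and all lists were chosen with earlier results of these data known. Values per library are given for the 4 largest rises and falls per line among called members, those called in opposite directions, those with a called difference between the lines of at least 1, and ATF4, DDIT3 and HSPA5. EIF2AK3 was added after its values were seen. Of each other list, the 2 largest called rises and falls per line are named.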

Additional observations from a re-analysis of the deposited data

Results flagged for a closer look

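The members below were picked out because the extract effect differed between HCC1937 and MDA-MB-231 by edgeR's test of the difference itself, HCC1937 minus MDA-MB-231, on the log2 scale. The difference was negative for CHAC1 (-2.50), NUPR1 (-2.35), PCK2 (-1.49), XBP1 (-1.48), ASNS (-1.44), PSAT1 (-1.30), CEBPG (-1.24), SESN2 (-0.94) and XPOT (-0.64). It was positive for PPP1R15A (1.76), HSPA5 (1.39), HSP90B1 (0.80), ATF5 (0.78), SDF2L1 (0.77), CALR (0.64) and TRIB3 (0.33). With the length and GC offset the calls of SDF2L1 (0.47, adjusted p = 0.0768) and TRIB3 (0.18, adjusted p = 0.051) ended, and without E3, E26 or E27 that of TRIB3 did too. The lines also differed in medium and concentration, which cannot be told apart from the line. PPP1R15A, the largest positive difference, was also the member whose control level was 9.02-fold lower in HCC1937. Groups of 3 libraries were held too small to flag members here for a single outlying library, so no member was picked out that way. Fits with each library left out are given below, and E7 is described above.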

How the results depend on the processing

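No paired analysis was possible because the groups share no replicate number. Of the counts of members, that of MDA-MB-231 falls was 4 with each line fitted alone (8 in the main analysis). The count of members with a higher effect in HCC1937 was 11 with DESeq2 (7 in the main analysis) and 6 to 16 when 1 library was left out, and that with a lower effect 9 to 14, the highest in both being without E7. In the fit without E7, 3552 and 4797 of all 14360 tested genes were higher and lower. The other counts over all 35 tested members stayed within 1.5 times under every alternative run. By branch, ATF4 falls in MDA-MB-231 (3) were 0 with the line alone and 1 without E1, E2 or E3. ER branch falls there (5) were 8 with the offset, and in HCC1937 ER rises (7) were 4 with the offset and falls (5) were 3 with DESeq2's size factors. Of the differences between the lines, those higher in the ATF4 branch (3) were 5 with DESeq2 and 6 without E7, and without E7 those of the ER branch were 10 higher (4) and 3 lower (1). The length and GC offset turned the sign of the MDA-MB-231 values of ATF6 (1.09), CRELD2 (-0.46), MANF (-0.58), PDIA6 (-0.09), SDF2L1 (-0.29), SEL1L (0.01), VLDLR (0.56) and XPOT (0.96). It turned the HCC1937 values of ATF4 (-0.19), ATF6 (1.20), CALR (-0.11), CEBPB (-0.34), CEBPG (0.06), CRELD2 (-0.31), DDIT3 (-0.02), EDEM1 (0.13), MANF (-0.36), PCK2 (-0.45), PDIA4 (-0.41), XBP1 (-0.04) and XPOT (0.60). With 1 library left out, HYOU1 in MDA-MB-231 ran from -0.22 to 0.33, and the difference between the lines from -0.13 to 0.13 for ATF4 and from -0.27 to 0.27 for DDIT3, the highest each time without E7. The cause of these changes was not tested beyond each alternative's own construction. With 3 counts at 0.099 to 0.213 CPM, depth limits PHGDH in all groups, VLDLR in HCC1937 and ALDH1L2 and NUPR1 in MDA-MB-231. ALDH1L2's difference between the lines, which was not called, ran from -1.24 to 0.72 over the alternatives.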
